A study of Mus musculus with 11 samples.

Results

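Desmosome genes encode the parts of the junctions that rivet neighbouring epidermal cells together, and their transcripts were followed here in skin of mice given an inhibitor of BET bromodomain proteins. The members were 10 named genes: Dsg2, Dsg3, Dsc1, Dsc2, Dsc3, Dsp, Jup, Pkp1, Pkp2 and Pkp3. Every probe set annotated to a single member was taken, and the one that was brightest over all arrays stood for its gene. By that rule 9 members were found among 18194 genes, with 23 probe sets; Dsg3 had no probe set annotated to it alone and was not analysed here. All 9 passed the filter on dim genes, which kept 13710 genes.

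The series compared mouse skin in 3 samples dosed with vehicle, 4 samples taken 6 h after 1 mg/kg ABBV-075 (mivebresib) and 4 samples taken 24 h after the same dose, with 1 Affymetrix array each. The labels number them as replicates without saying whether each is a separate mouse, so p-values measure the spread between these samples, which may in part be technical. The sources used here do not give strain, sex or age, nor the hour at which vehicle skin was taken. The arrays held whole skin, in which fewer cells of a type and less RNA per cell cannot be told apart.

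A desmosome is built in layers. Desmogleins and desmocollins are cadherins that cross the membrane and bind their counterparts on the next cell. Inside the cell, plakoglobin (Jup) and the plakophilins hold the cadherin tails, and desmoplakin (Dsp) ties this plaque to the keratin filaments. In epidermis the composition changes with depth: Dsc3 and Dsg3 are mainly products of the lower layers and Dsc1 of the upper, differentiating layers, while Dsg2, Dsc2 and Pkp2 are best known from simple epithelia and heart muscle. BET inhibitors displace bromodomain proteins from acetylated histones and thereby lower transcription of many genes.

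Array brightness and RNA control ratios varied, which bears on every value below. The trimmed mean of the deposited intensities ran from 205 to 244 in vehicle, 82.8 to 244 at 6 h and 116 to 183 at 24 h. All 24 h arrays were thus dimmer than all vehicle arrays, as were all 6 h arrays but replicate 1 (244). Quantile normalization, used below, gives all arrays the same distribution and so removes such a difference. Beta-actin's ratio of 5' to 3' signal (lower in shortened RNA) ran from 0.484 to 0.593 in vehicle, 0.0725 to 0.425 at 6 h and 0.198 to 0.529 at 24 h. Every 6 h ratio was below every vehicle ratio. Skin markers were present: all 11 suprabasal keratinocyte markers and 10 of 11 basal keratinocyte markers were measured, and none was at the floor of the scale on all arrays. Levels are log2 values of the quantile-normalized intensity plus 16, so that 4.00 is the floor, and they compare arrays for 1 probe set, not genes with each other. Changes are differences on that scale with their standard error (SE) from limma, and adjusted p is the Benjamini-Hochberg value over all genes kept.

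No desmosome gene changed by the test at either time. At 6 h 7 of the 9 genes had a mean above vehicle, as did 50.4% of all genes, and 2, Dsc1 and Pkp2, a mean below it, with differences from -0.30 to 0.72. The median difference was 0.31, beside 0.0037 for all genes. At 24 h the same 7 and 2 genes lay above and below vehicle, where 47.6% of all genes lay above, with differences from -0.30 to 0.56 and a median of 0.37, beside -0.020 for all genes. Both comparisons share the vehicle arrays, so the second is no repeat of the first.

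Limma called 0 of 9 members at 6 h (lowest adjusted p = 0.206), where 0% of all genes were called, and 1 of 9 had an unadjusted p under 0.05, as did 16.1% of all genes. It called 0 of 9 at 24 h (lowest adjusted p = 0.634), again with 0% of all genes called; 1 of 9 had an unadjusted p under 0.05, as did 7.63% of all genes. Between 24 h and 6 h 0 of 9 were called (lowest adjusted p = 0.797), with 0% of all genes called and 0 of 9 at an unadjusted p under 0.05, against 9.27% of all genes. With limma's array weights 2 of 9 members, Dsc3 and Pkp1, were called higher at 6 h, where that fit called 7.71% of all genes higher and 18.2% in either direction. It weighted vehicle replicate 3 at 4.85, against 0.66 and 1.54 for replicates 1 and 4. At 6 h it weighted replicate 2 at 2.88, against 0.90, 0.61 and 0.30 for replicates 1, 3 and 5. Without vehicle replicate 1 the median member difference was 0.18 at 6 h and -0.0098 at 24 h. Without normalization the 6 h arrays gave a difference of -0.68 for the median gene and -0.44 for the median member, and the 24 h arrays gave -0.62 and -0.24. Without the 3 arrays whose beta-actin ratio was under 0.3 the median at 6 h was 0.84, from 2 arrays.

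**Figure D1:**
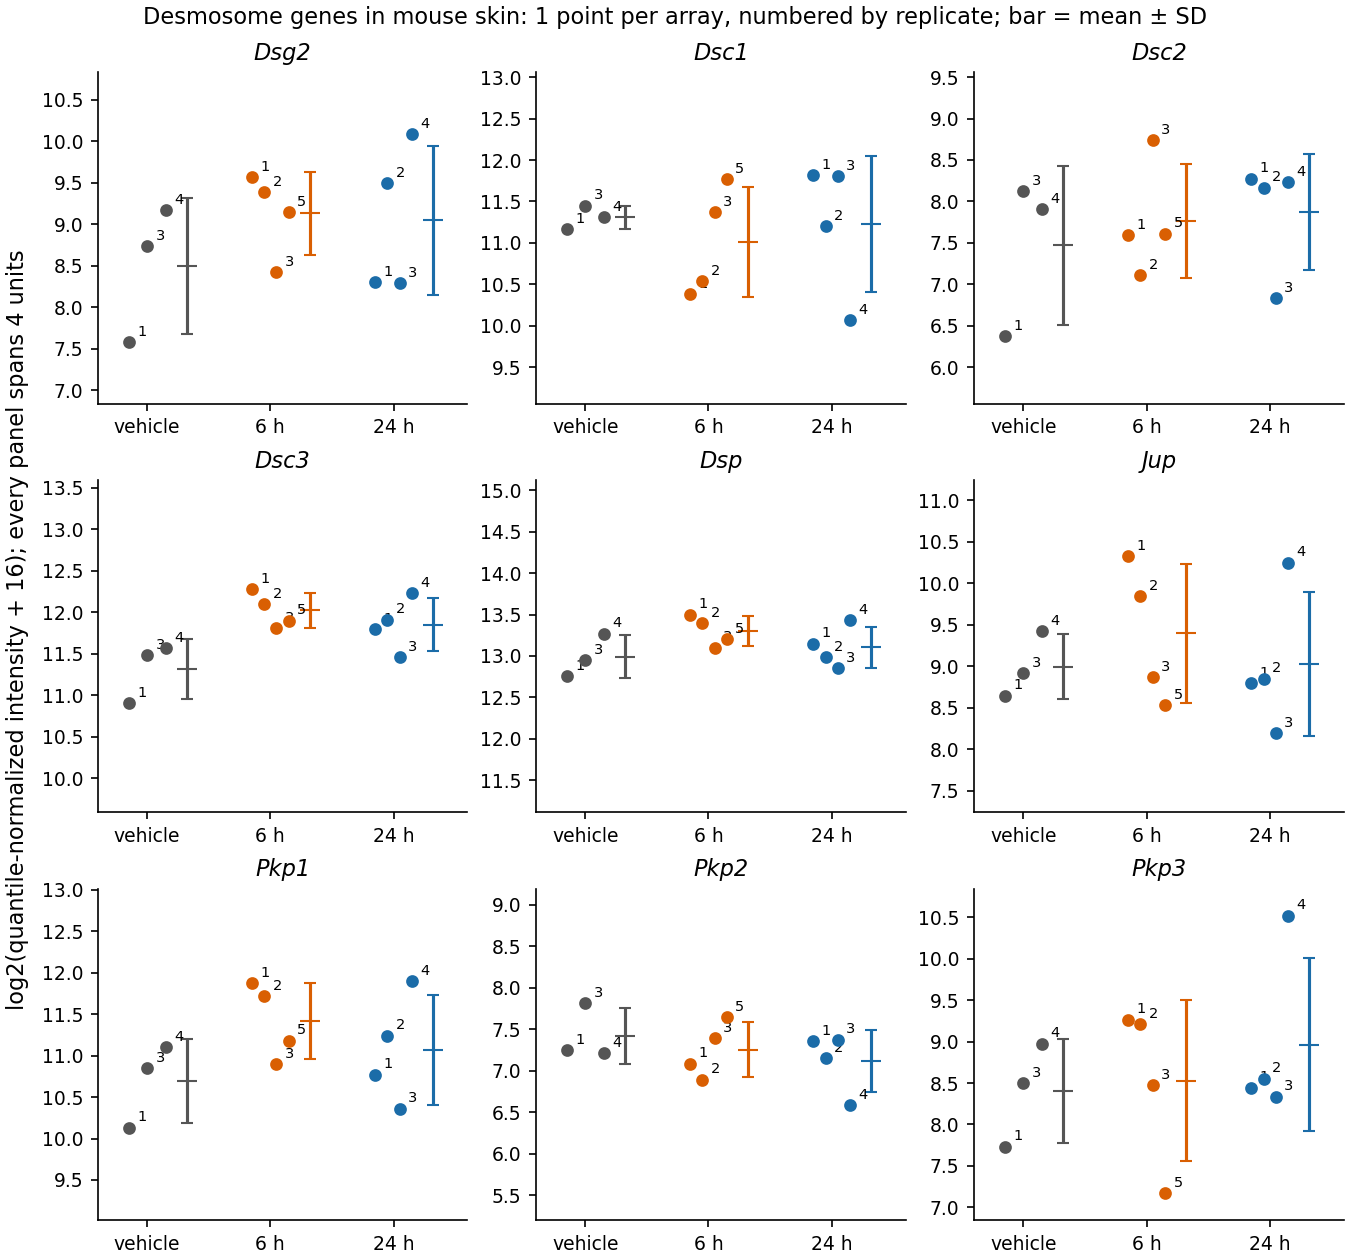
Level of the 9 desmosome genes on each of 11 arrays, as log2 of the quantile-normalized intensity plus 16, by group; numbers are the labels' replicate numbers, and the bars give mean ± SD. Every panel spans 4 units, and only for Dsc3 do the 4 arrays at 6 h (11.81 to 12.28) all lie above the 3 vehicle arrays (10.90 to 11.57).

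Among the cadherins, Dsc3, the desmocollin of the lower epidermal layers, was the one member whose 6 h and vehicle arrays did not overlap. In vehicle it lay at 10.90, 11.48 and 11.57, for replicates 1, 3 and 4. After dosing it lay at 12.28, 12.10, 11.81 and 11.90 at 6 h, for replicates 1, 2, 3 and 5, and at 11.80, 11.91, 11.46 and 12.23 at 24 h, for replicates 1 to 4. All 6 h arrays were above all vehicle arrays, while 1 array at 24 h, replicate 3, fell inside the vehicle range. Among all genes 9.77% had every 6 h array above every vehicle array; in either direction groups did not overlap for 18.5% at 6 h and 11.1% at 24 h. The difference from vehicle was 0.71 ± 0.23 at 6 h, or 1.63-fold (limma adjusted p = 0.206), and 0.53 ± 0.23 at 24 h, or 1.45-fold (adjusted p = 0.634). It was the one member with an unadjusted p under 0.05 at both times (0.0102 and 0.0400). Leaving out single arrays gave 0.50, without vehicle replicate 1, to 0.83, without vehicle replicate 4, at 6 h. With array weights the 6 h difference was 0.64 and passed (limma adjusted p = 0.0192, the lowest of 26 alternatives, whose values ran up to 0.867). It was 0.36 for the mean of both Dsc3 probe sets and 0.086 in the values as deposited.

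Dsc1, the desmocollin of the upper layers, had closer values among vehicle arrays than among dosed arrays. Vehicle arrays lay at 11.17, 11.45 and 11.31. The 6 h arrays lay at 10.38, 10.54, 11.37 and 11.77, and the 24 h arrays at 11.82, 11.20, 11.81 and 10.07. Arrays of both dosed groups thus lay on both sides of the vehicle range. The SD was 0.14 among the 3 vehicle arrays, 0.66 among 6 h and 0.82 among 24 h arrays. For a second Dsc1 probe set (1421460_at) it was 0.36, 0.55 and 1.40. Whether the spread differs between groups was not tested. For the main probe set the differences were -0.30 ± 0.44 at 6 h (limma adjusted p = 0.767) and -0.085 ± 0.44 at 24 h (adjusted p = 0.968). Leaving out single arrays moved the 6 h difference from -0.083, without 6 h replicate 1, to -0.55, without 6 h replicate 5. At 24 h the sign turned without replicate 4 (0.30).

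Dsc2, the most widely expressed desmocollin, was the most uneven in vehicle skin. Vehicle arrays lay at 6.37, 8.13 and 7.91, 6 h arrays at 7.59, 7.11, 8.74 and 7.61, and 24 h arrays at 8.27, 8.17, 6.83 and 8.24. Vehicle replicate 1 was the lowest array and 6 h replicate 3 the highest, so that the groups overlapped over most of their range. The differences were 0.30 ± 0.51 at 6 h (limma adjusted p = 0.802) and 0.41 ± 0.51 at 24 h (adjusted p = 0.854). Without vehicle replicate 1 they were -0.25 and -0.14.

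Dsg2, the desmoglein of basal and hair follicle cells as well as of heart, had higher means at both times with wide overlap. It lay at 7.58, 8.74 and 9.17 in vehicle, at 9.57, 9.39, 8.42 and 9.15 at 6 h, and at 8.30, 9.50, 8.29 and 10.09 at 24 h. The lowest value was vehicle replicate 1 and the highest 24 h replicate 4. Differences of 0.64 ± 0.50 at 6 h (limma adjusted p = 0.558) and 0.55 ± 0.50 at 24 h (adjusted p = 0.791) became 0.18 and 0.090 without vehicle replicate 1. The 95% confidence interval of the 6 h difference ran from -0.46 to 1.74.

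Desmoplakin, the link to keratin, had the smallest spread within groups. Dsp lay at 12.76, 12.95 and 13.27 in vehicle, at 13.50, 13.40, 13.10 and 13.20 at 6 h, and at 13.15, 12.99, 12.85 and 13.43 at 24 h. The pooled SD within groups was 0.23, the lowest value among the 9 genes, and its whole range over 11 arrays was 0.74. The differences were 0.31 ± 0.20 at 6 h (limma adjusted p = 0.463) and 0.11 ± 0.20 at 24 h (adjusted p = 0.899), with a 95% interval from -0.12 to 0.74 at 6 h and from -0.32 to 0.54 at 24 h. The 6 h difference was 0.70 under median scaling, 0.0014 in the values as deposited and 0.19 without vehicle replicate 1.

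Plakoglobin (Jup), which binds both classes of desmosomal cadherin and also serves in adherens junctions, split the dosed arrays. Vehicle arrays lay at 8.65, 8.92 and 9.42. At 6 h replicates 1 and 2 lay at 10.33 and 9.85, above all vehicle arrays, and replicates 3 and 5 at 8.87 and 8.53, inside or below their range. At 24 h replicate 4 lay at 10.25 and replicates 1, 2 and 3 at 8.79, 8.85 and 8.20. The differences were 0.40 ± 0.51 at 6 h (limma adjusted p = 0.722) and 0.028 ± 0.51 at 24 h (adjusted p = 0.991), and without 24 h replicate 4 the second was -0.38. The first ran from 0.088, without 6 h replicate 1, to 0.69, without 6 h replicate 5, and was 1.02 with the replicate number as a block.

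Dsp and Jup belong to the genes that ran together over the arrays, as described further on, and are the members with an entry in RefSeq's promoter table (GRCm38.p6) that could be shown. The sequences are the 200 bases from 250 to 51 before the annotated transcript start, on the gene's strand and read 5′ to 3′, with motif matches in capitals. Jup lies at chr11:100397841-100398040 on the minus strand and Dsp at chr13:38151044-38151243 on the plus strand.
Jup: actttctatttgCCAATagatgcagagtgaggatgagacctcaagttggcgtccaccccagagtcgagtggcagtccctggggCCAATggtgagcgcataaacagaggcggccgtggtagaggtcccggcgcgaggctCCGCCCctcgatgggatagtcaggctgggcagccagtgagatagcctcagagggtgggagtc
Dsp: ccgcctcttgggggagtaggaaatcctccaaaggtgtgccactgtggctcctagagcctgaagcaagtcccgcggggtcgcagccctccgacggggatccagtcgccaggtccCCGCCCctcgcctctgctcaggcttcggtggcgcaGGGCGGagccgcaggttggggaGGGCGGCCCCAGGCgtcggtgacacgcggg

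Both windows held the GC box GGGCGG on one or the other strand, 1 match in Jup and 3 in Dsp, as did 24.6% of all 32851 windows of the table. Jup held 2 matches to CCAAT, present in 28.4% of windows, and Dsp held none. The Dsp window held 1 match to the AP-2 motif GCCNNNGGC, which overlaps the GC box nearest the start and is present in 10.6% of windows. Neither window held the AP-1 motif TGANTCA, which 5.57% of windows held. The TATA box TATAAA, present in 9.14%, was in neither. The E-box CACGTG, present in 4.34%, was in neither, and nor was the grainyhead motif AACCGGTT, which 0.0944% of windows held. Both strands were searched, and a match is a description of letters only.

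The plakophilins, armadillo proteins that cluster cadherins and recruit desmoplakin, differed from one another. Pkp1, the plakophilin of stratified epithelia, lay at 10.13, 10.85 and 11.10 in vehicle, at 11.87, 11.72, 10.90 and 11.18 at 6 h, and at 10.77, 11.24, 10.36 and 11.90 at 24 h. At 6 h 3 of 4 arrays were above all vehicle arrays and replicate 3 was not. Its difference was 0.72 ± 0.38 at 6 h, or 1.65-fold (limma adjusted p = 0.375), and 0.37 ± 0.38 at 24 h (adjusted p = 0.816). With array weights the 6 h difference was 0.77 and passed (limma adjusted p = 0.0445, the lowest of 26 alternatives, whose values ran up to 0.966). As deposited it was 0.026, and without vehicle replicate 1 it was 0.44.

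Pkp2, best known from heart and simple epithelia, had a mean below vehicle at both times. Vehicle arrays lay at 7.25, 7.81 and 7.21, 6 h arrays at 7.09, 6.89, 7.39 and 7.64, and 24 h arrays at 7.36, 7.16, 7.38 and 6.58. In each dosed group 2 of 4 arrays lay below all vehicle arrays and 2 inside their range. The differences were -0.17 ± 0.26 at 6 h (limma adjusted p = 0.775) and -0.30 ± 0.26 at 24 h (adjusted p = 0.772). Without vehicle replicate 3 they were 0.027 and -0.11.

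Pkp3, which is found in desmosomes of all epidermal layers, had the widest spread, with a pooled SD within groups of 0.93. It lay at 7.73, 8.50 and 8.98 in vehicle, at 9.26, 9.21, 8.47 and 7.17 at 6 h, and at 8.45, 8.55, 8.34 and 10.52 at 24 h. Both the lowest value, 6 h replicate 5, and the highest, 24 h replicate 4, came from dosed skin. The array with the lowest Pkp3 was also the one with the lowest beta-actin 5' to 3' ratio, 0.0725, and without that array the 6 h difference was 0.58 in place of 0.13. Over all arrays the differences were 0.13 ± 0.61 at 6 h (limma adjusted p = 0.935) and 0.56 ± 0.61 at 24 h (adjusted p = 0.832). Without 24 h replicate 4 the second was 0.043, and without vehicle replicate 1 the first was -0.21.

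**Figure D2:**
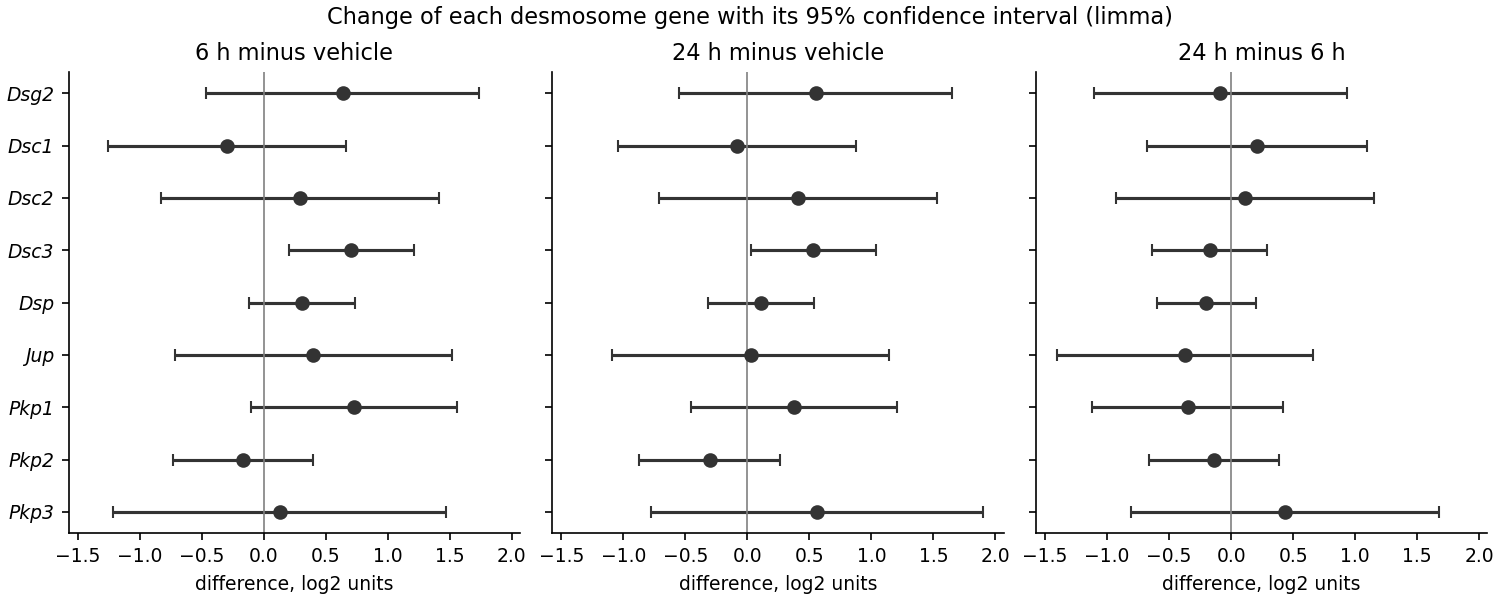
Difference of each desmosome gene in log2 units, as points with 95% confidence intervals from limma, for 6 h and 24 h against vehicle, and for 24 h against 6 h. The intervals of Dsc3 lie above 0 at 6 h (0.20 to 1.21) and 24 h (0.029 to 1.03) before any adjustment over genes, and all others cross 0.

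Between 24 h and 6 h the members differed little beside their errors. The differences ran from -0.37 (Jup) to 0.43 (Pkp3), with 3 of 9 above 0, as were 47.4% of all genes, and a median of -0.14, beside -0.019 for all genes. Arrays of the dosed groups overlapped for all 9 genes, where 5.46% of all genes did not overlap. Pkp1 differed by -0.35 ± 0.35 and Dsc3 by -0.17 ± 0.21 (limma adjusted p = 0.826 and 0.863). The 95% interval of the Pkp1 difference ran from -1.12 to 0.42, and that of Pkp3 from -0.81 to 1.67.

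Other probe sets of a gene often gave another size at 6 h. Beside the 9 that stand for the genes, 12 more passed the filter, and 1 fit over all 24895 named probe sets that passed it was added after the gene values were seen. It called 0 of the 12 at each time; limma called 0.00402% of all probe sets at 6 h, 0% at 24 h and 0.00402% between the times. A second Dsc1 probe set (1421460_at) lay below vehicle on every 6 h array, at 8.11 in vehicle against 6.81, a difference of -1.30 ± 0.61 (adjusted p = 0.328). The second Pkp3 probe set (1418832_at) was dim: it was above the 40th percentile on 5 of 11 arrays, and its deposited intensities at 6 h were 28.8, 12.9, 4.6 and -15.0, against 71.9, 41.7 and 88.3 in vehicle. Its fitted difference of -1.36 ± 0.52 (adjusted p = 0.254) therefore rests on values near or at the floor, and its size and sign are not set against those of the brighter probe set. A second Dsp probe set (1435493_at) lay above vehicle on every 6 h array and differed by 0.58 ± 0.20 (adjusted p = 0.225), while 1427610_at, a dimmer one of Dsp that was above the 40th percentile on 9 of 11 arrays, differed by -0.25 ± 0.58. The second Dsc3 probe set (1427637_a_at) differed by 0.015 ± 0.34 at 6 h and by 0.66 ± 0.34 at 24 h (adjusted p = 0.988 and 0.646). For Dsc2 the second probe set (1421156_a_at) differed by -0.24 ± 0.43 at 6 h and -0.27 ± 0.43 at 24 h, opposite in sign to the main one. It was dim, above the 40th percentile on 5 of 11 arrays and at the floor on 6 h replicate 5 and 24 h replicate 3. At this level of single probe sets 18.5% of all did not overlap at 6 h, 11% at 24 h and 5.06% between the times.

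For Pkp2 the 2 probe sets that passed both lay below vehicle at both times. The second (1429183_at) differed by -0.53 ± 0.23 at 6 h and -0.63 ± 0.23 at 24 h (limma adjusted p = 0.30 and 0.572). Dsg2 had 6 probe sets, and their differences ran from -0.091 to 0.66 at 6 h and from 0.085 to 0.90 at 24 h. The value of 0.085 belongs to 1426153_a_at, which was above the 40th percentile on 4 of 11 arrays and at the floor on 2, and has no direction to read. Of the others, 1449741_at, above that percentile on 8 of 11 arrays, lay above both vehicle and 6 h on every 24 h array, by 0.75 ± 0.26 and 0.84 ± 0.24 (limma adjusted p = 0.563 and 0.381). It followed the main Dsg2 probe set loosely over the arrays (r = 0.25, n = 11).

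**Figure D3:**
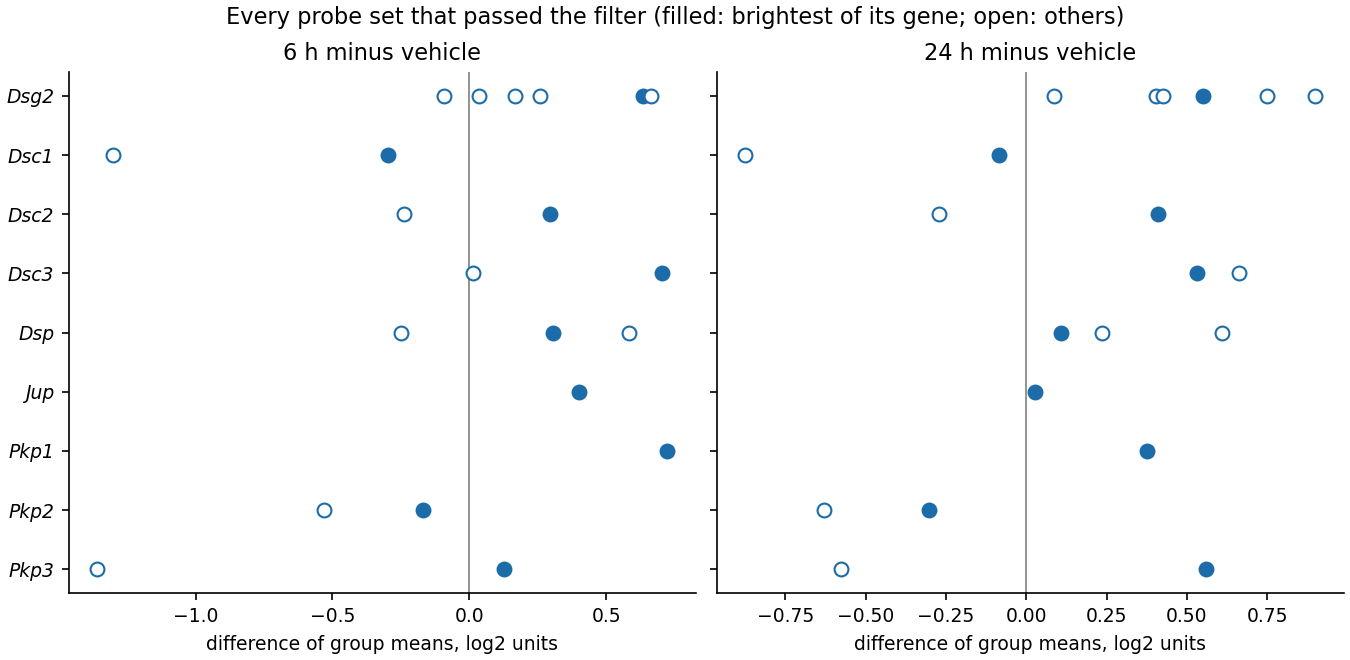
Difference of group means in log2 units for the 21 probe sets of the 9 desmosome genes that passed the filter, at 6 h and 24 h minus vehicle; filled points are the brightest probe set of a gene and open points its others. At 6 h the open point of Dsc1 (-1.30) lies below its filled one (-0.30), and the open point of Pkp3 (-1.36) comes from a dim probe set, above the 40th percentile on 5 of 11 arrays.

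The clearest structure in these genes lay between arrays rather than between groups. Dsg2, Dsc3, Dsp, Jup, Pkp1 and Pkp3 were high and low on the same arrays, whereas Dsc1 and Pkp2 ran the other way. Over the 11 arrays the 15 pairs among the former genes had a Pearson correlation of 0.58 to 0.94 (median 0.83). Dsg2 with Pkp1 was highest, at r = 0.94 and Spearman's rho = 0.97, and r was 0.88 without the 2 arrays farthest from the median of Dsg2. The same removal, by the first gene of each pair, left Dsg2 with Pkp3 at 0.32, Pkp1 with Pkp3 at 0.46 and Dsc3 with Pkp3 at 0.47, so that these pairs with Pkp3 rest in part on 2 arrays. Dsc1 correlated with these 6 genes at -0.92 to -0.55 and Pkp2 at -0.79 to -0.48. Dsc1 with Jup was the lowest pair, at r = -0.92 and rho = -0.75, and r was -0.80 without the 2 arrays farthest from the median of Dsc1. Dsc1 and Pkp2 correlated with each other at 0.82 (rho = 0.81, and r = 0.70 without the 2 farthest arrays). Dsc2 followed no other member closely, with r from 0.0024 to 0.48.

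These correlations are descriptions, with no test, since the grouping was made from them. The points share arrays that differ in beta-actin ratio, brightness and marker levels. With each group's mean removed, the 15 pairs ran from 0.69 to 0.97, and Dsc1 with the 6 genes from -0.91 to -0.64, so that the pattern was present within groups. The second Dsc1 probe set correlated with the 6 genes at -0.91 to -0.69 and the second Pkp2 probe set at -0.43 to -0.19. The dimmer probe sets of Dsg2 (1449741_at) and Pkp3 (1418832_at) had median r of 0.024 and 0.0015. The second Dsc3 probe set (1427637_a_at), above the 40th percentile on all 11 arrays, also followed the set loosely, with a median r of 0.22. For Dsp the median r was 0.45 with 1427610_at and 0.73 with 1435493_at. Of the remaining Dsg2 probe sets, 1449740_s_at and 1460380_at had a median r of 0.72 and 1425619_s_at of 0.76. The value for 1426153_a_at was also 0.76, but it was above the 40th percentile on only 4 of 11 arrays. Under cyclic loess the ranges were 0.59 to 0.93 for the 15 pairs and -0.92 to -0.65 for Dsc1. After median scaling they widened to -0.27 to 0.90 and to -0.92 to 0.13. In the values as deposited Dsc1 correlated with the 6 genes at -0.35 to 0.0069 and Pkp2 at 0.28 to 0.48, so that neither ran clearly against the set on that scale. The desmocollin genes Dsc1, Dsc2 and Dsc3 all lie on chromosome 18 in RefSeq's table, and their pairs had r of 0.0024 (Dsc1 and Dsc2), -0.55 (Dsc1 and Dsc3) and 0.48 (Dsc2 and Dsc3). Without the 2 arrays farthest from the median of the first gene these were 0.22, -0.17 and -0.36, so that the last pairs rest on those arrays.

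**Figure D4:**
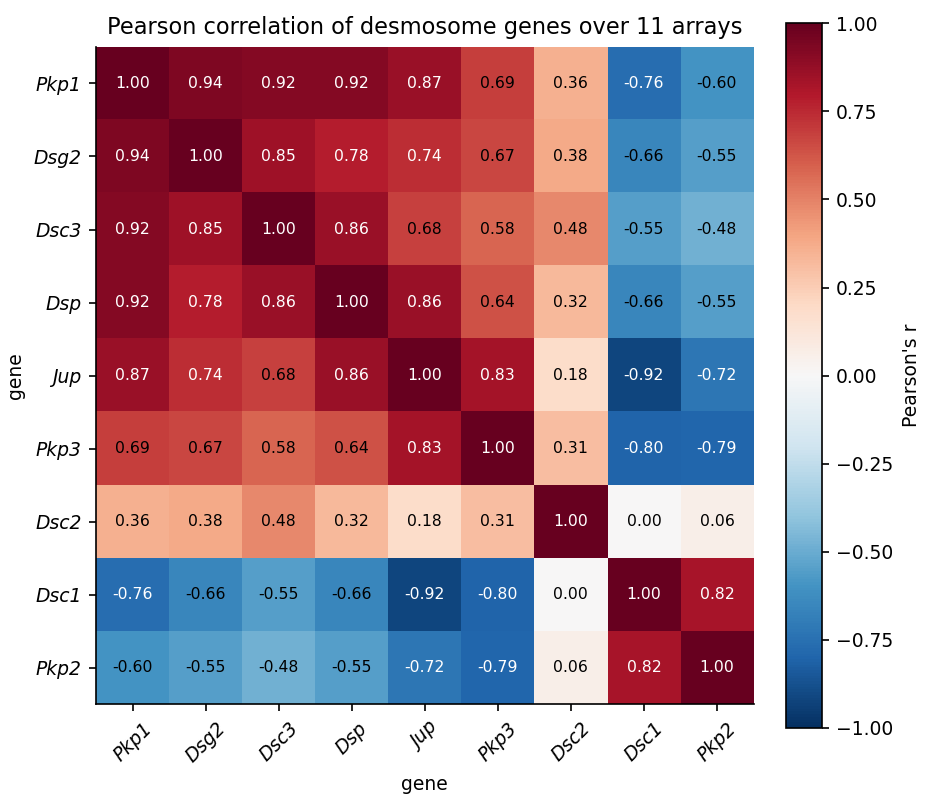
Pearson correlation of each pair of desmosome genes over 11 arrays, in red above 0 and blue below 0, with the value in each cell. The upper left block of 6 genes holds values from 0.58 to 0.94, while Dsc1 and Pkp2 at the lower right correlate at 0.82 with each other and below 0 with the block.

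The same few arrays set the extremes. Vehicle replicate 1 was lowest for 5 of 9 members (Dsg2, Dsc2, Dsc3, Dsp and Pkp1), and 24 h replicate 4 was highest for 3 (Dsg2, Pkp1 and Pkp3) and lowest for the other 2 of opposite course, Dsc1 and Pkp2. The highest values of Dsc3, Dsp and Jup were on 6 h replicate 1. The mean over the 9 genes was 9.17 on vehicle replicate 1, 10.21 on 6 h replicate 1 and 10.37 on 24 h replicate 4, and 9.50 to 10.02 on the others.

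Marker lists of skin cell types moved on the same arrays. The mean of the 10 measured basal keratinocyte markers was highest on 24 h replicate 4 (11.58), 6 h replicate 1 (10.85) and 6 h replicate 2 (10.62) and lowest on vehicle replicate 1 (9.23). The summed intensity of these markers ran from 10631 to 20720 in vehicle, 13948 to 34925 at 6 h and 13994 to 49031 at 24 h, and all 10 had a mean above vehicle at both times, none called by limma. One of them, Itgb4, was at the floor on some arrays. Suprabasal markers moved less, their sum running from 36856 to 42261 in vehicle, 36374 to 54776 at 6 h and 30023 to 43972 at 24 h.

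Markers of several other skin cell types ran the opposite way, though not of all. The 12 macrophage and dendritic cell markers had their lowest mean on 24 h replicate 4 (8.15) and 6 h replicate 1 (9.17) and their highest on vehicle replicate 1 (11.47), and their summed intensity ran from 25597 to 47924 in vehicle, 15819 to 25784 at 6 h and 6438 to 31125 at 24 h. All 12 had a mean below vehicle at both times, none called. The 11 measured fibroblast markers summed to 64492 to 68991 in vehicle, 51937 to 60685 at 6 h and 25961 to 63695 at 24 h, and the 9 measured adipocyte markers to 34330 to 41768, 19522 to 33896 and 12461 to 37717. None of the macrophage or fibroblast markers was at the floor on any array, and of the adipocyte markers Lep was on some. Over the 11 arrays the mean of the 9 desmosome genes correlated with the basal keratinocyte mean at r = 0.80 and with the macrophage and dendritic cell mean at r = -0.86, as a description; with group means removed these were 0.78 and -0.84. The blood endothelial list gave -0.77 (-0.74 with group means removed), the fibroblast list -0.66 (-0.58) and the adipocyte list -0.66 (-0.57). Other lists ran with the desmosome genes: skeletal muscle at 0.47 (0.69), melanocyte at 0.58 (0.52), sebaceous gland at 0.47 (0.54) and suprabasal keratinocyte at 0.64 (0.63). Lists described below ran closer than the basal keratinocyte list: tight junction at 0.87 (0.87), adherens junction at 0.86 (0.88), epidermal transcription factors at 0.85 (0.83) and keratins at 0.84 (0.86). Some lists share genes, so their values are not independent. The basal list shares Krt5, Krt14 and Krt15 with the keratins and Trp63 with the transcription factors. The suprabasal list shares Krt1 and Krt10 with the keratins. Further desmosome genes gave 0.59 (0.63) and gap junction genes 0.12 (0.27). Hair shaft markers, whose mean ran from 5.13 to 9.66 between arrays, gave 0.032 (0.16). None of the genes of these further lists was called. The part of these cell types in the levels of the desmosome genes was not tested. Between the beta-actin ratio and the mean of the 9 desmosome genes r was -0.092, and 0.24 with group means removed. Members of opposite course offset each other in that mean. At 6 h, from the highest ratio to the lowest, Jup fell and Dsc1 rose on every array, but not at 24 h. With the ratio as a covariate the 6 h difference was 1.04 for Jup, 1.06 for Pkp3, -0.62 for Dsc1 and 0.53 for Dsg2. The median member difference was then 0.53, with 0 members called.

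**Figure D5:**
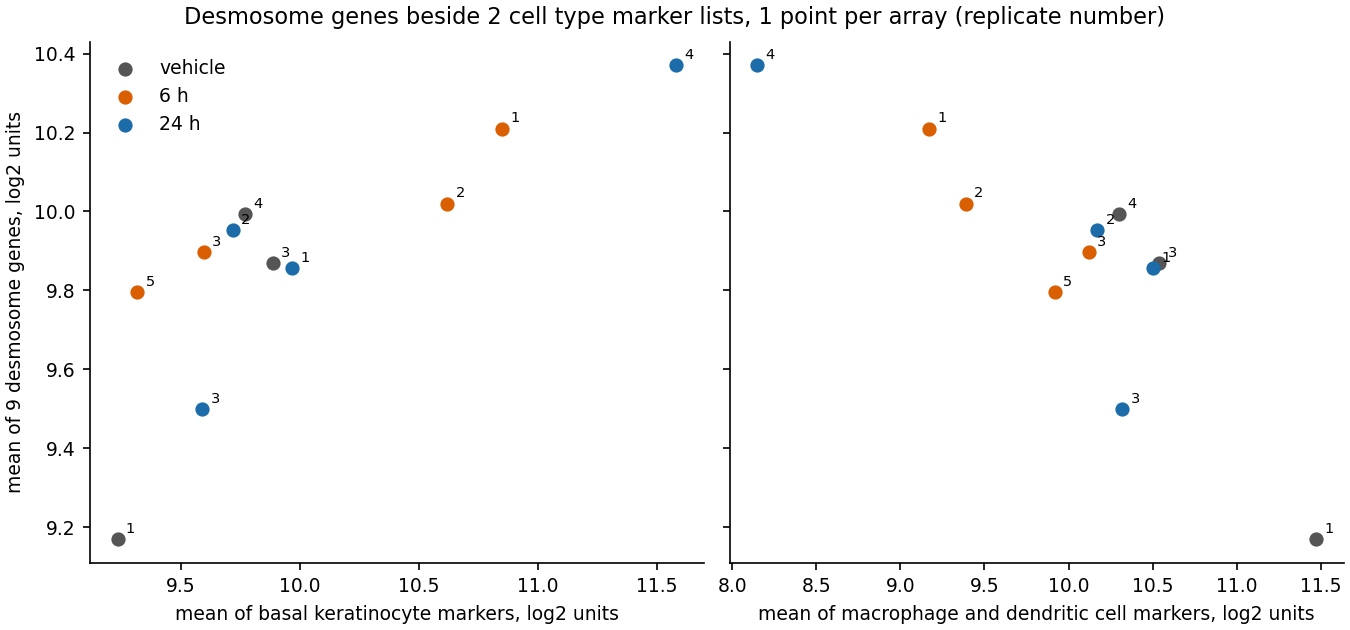
Mean level of the 9 desmosome genes on each array against the mean of basal keratinocyte markers (left) and of macrophage and dendritic cell markers (right), all in log2 units; colours give the group and numbers the replicate. Replicate 4 at 24 h (10.37) and vehicle replicate 1 (9.17) lie at opposite ends of both plots.

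Further genes of the desmosome and of the cornified layer's junctions showed no call. Of 12 listed, 10 were measured, and limma called 0 higher and 0 lower at both times. Dsg1b, a desmoglein of the upper epidermis, differed by 0.78 ± 0.30 at 6 h and 0.58 ± 0.30 at 24 h (adjusted p = 0.250 and 0.663). Klk5, a protease that degrades corneodesmosomes, lay below vehicle on every 6 h array, with a difference of -0.65 ± 0.26 (adjusted p = 0.264). Among all genes 18.5% did not overlap with vehicle at 6 h in either direction. Ppl, a plakin of the cornified envelope, differed by 0.44 ± 0.23 and Klk7, another corneodesmosome protease, by 0.37 ± 0.26 at 6 h. Cdsn, the adhesive protein of corneodesmosomes, differed by -0.57 ± 0.55 at 6 h and -0.94 ± 0.55 at 24 h, and Perp, a desmosome protein induced by p63, by 0.16 ± 0.16 and -0.046 ± 0.16. The median over the 10 genes was 0.097 at 6 h and 0.036 at 24 h.

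Other junction classes were likewise uncalled. In adherens junctions 0 of 12 genes were called at either time, and 9 of 12 means lay above vehicle at 6 h (median 0.16) and 10 of 12 at 24 h (median 0.089). Vcl, the actin linker vinculin, lay above vehicle on every 6 h array, as did 9.77% of all genes, by 0.63 ± 0.19 (limma adjusted p = 0.183). Cdh1, E-cadherin, differed by 0.77 ± 0.35 at 6 h (adjusted p = 0.305). Among 8 tight junction genes tested 0 were called and 6 means lay above vehicle at 6 h (median 0.44). Ocln, occludin, differed by 0.53 ± 0.22, Tjp1, the scaffold ZO-1, by 0.46 ± 0.19, and Cldn1, the main epidermal claudin, by 0.46 ± 0.20 (limma adjusted p = 0.271, 0.286 and 0.290). At 24 h these were 0.056, 0.16 and 0.29. Of 5 gap junction genes tested 4 means lay below vehicle at 6 h (median -0.23) and 0 were called.

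Keratins, the filaments to which desmoplakin binds, gave 0 calls among 8 tested, with medians of 0.29 at 6 h and 0.21 at 24 h. Krt14 of basal cells differed by 0.30 ± 0.36 at 6 h and 0.37 ± 0.36 at 24 h, and Krt15 by 0.58 ± 0.46 and 0.55 ± 0.46. The upper-layer keratins differed in sign. Krt10 differed by -0.14 ± 0.26 and -0.43 ± 0.26, and Krt1 by 0.32 ± 0.49 and 0.10 ± 0.49. At 24 h Krt10 lay below vehicle on every array, where 11.1% of all genes did not overlap with vehicle in either direction. Transcription factors of epidermis had a median of 0.53 at 6 h and 0.14 at 24 h over 9 genes tested, with 0 called. The grainyhead-like factors, which act in epidermal barrier formation and junction gene expression, lay above vehicle on every 6 h array: Grhl1 by 0.53 ± 0.17, Grhl2 by 0.98 ± 0.35 and Grhl3 by 0.37 ± 0.15 (limma adjusted p = 0.207, 0.234 and 0.278). Among all genes 9.77% lay above vehicle on every 6 h array, and the other factors tested in this list overlapped with vehicle at 6 h. All 24 h arrays lay below all 6 h arrays for Grhl3, with a difference of -0.64, with limma adjusted p = 0.211. Trp63, the master regulator of stratified epithelium, differed by 0.61 ± 0.36 at 6 h and 0.63 ± 0.36 at 24 h (adjusted p = 0.428 and 0.684).

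The genes whose course was most like the mean of the 9 desmosome genes over 11 arrays were Hip1r, which encodes a clathrin and actin adaptor (r = 0.95), Ccdc120 (0.94), Hmgn1, a nucleosome-binding protein (0.94), Tfap2c, the transcription factor AP-2 gamma (0.94), Psmc4, a proteasome ATPase (0.93), Lmna, the lamin A and C gene (0.93), Efna5, an ephrin (0.93), and Prpf19, a splicing factor (0.93). Their r with each group's mean removed ran from 0.92 to 0.95. Tfap2c shows the course: it lay at 8.39, 9.47 and 9.48 in vehicle, at 10.18, 10.06, 9.17 and 9.52 at 6 h, and at 9.13, 9.59, 8.79 and 10.46 at 24 h. As for the mean of the 9 desmosome genes, by which it was chosen, vehicle replicate 1 was lowest and 24 h replicate 4 highest.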

How the data were processed

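The authors deposited linear intensities for 45101 Affymetrix probe sets on each array; how background and scaling were handled, and with which software, is not given in the sources used here. Per the labels' protocols, total RNA was amplified with an Affymetrix 3' IVT Plus kit. Between 12.9% and 16.6% of an array's values lay below 0. Of 34958 probe sets annotated to 1 gene, 34754 took their current symbol from RefSeq by Entrez identifier; 932 had several genes and 9211 none. Intensities were quantile-normalized, set to at least 0 and taken as log2(intensity + 16). The brightest probe set per gene was kept if 3 or more arrays had it above their 40th percentile. Groups were compared in 1 fit over 11 arrays with limma 3.58.1 in R 4.3.3, two-sided, with a threshold of 0.05 for Benjamini-Hochberg adjusted p. The code of the fit was run on simulated data with planted differences. That simulation drew each gene's noise independently, unlike these arrays, so it cannot give the error rate of calls here. The number of arrays limits the precision, and each array is 1 labelled replicate.

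The members, gene lists and scaling were chosen with earlier results of these data known. All members are named; other named genes are up to 4 genes of smallest unadjusted p per list and comparison, and the 8 genes most like the members' mean. Alternatives changed the scaling, filter, pseudocount, probe set rule, variance model, array weights, replicate block, beta-actin ratio, groups in the fit and single arrays. The cell type lists used were basal and suprabasal keratinocyte, hair shaft, sebaceous gland, fibroblast, adipocyte, macrophage and dendritic cell, blood endothelial, skeletal muscle and melanocyte markers. The main fit used no pairing by replicate number. Deviations from group means of same-numbered arrays correlated at 0.25, 0.13 and 0.21 for vehicle and 24 h. For vehicle and 6 h they correlated at -0.12 and -0.074, and for 6 h and 24 h at -0.064, -0.35 and 0.17. Differently numbered arrays were not compared, so these values cannot decide whether arrays are paired. The replicate number entered only as a block among the alternatives. The fit over single probe sets was chosen after seeing the data.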

Additional observations from a re-analysis of the deposited data

Results flagged for a closer look

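In the 18 sets of 4 arrays (9 genes at 6 h and at 24 h), 2 held an array far from the other 3, by a gap test that marks about 1 in 20 sets by chance. Dsc2 lay at 6.83 on 24 h replicate 3, where the nearest other 24 h array lay at 8.17. Pkp3 lay at 10.52 on 24 h replicate 4, where the nearest lay at 8.55.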

How the results depend on the processing

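Member levels depended on scaling and on few arrays, which is the main limit with 3 or 4 arrays per group. There were 777 alternative values of single genes and of counts called over all genes. Of these, 698 stayed: a gene kept its direction and side of the threshold, or a count stayed at 0. Signs turned for 56 gene values, 2 gene values passed the threshold, and 21 counts over all genes were no longer 0. Of 156 values of the member counts and medians, 149 stayed and 7 moved. A median moved if it shifted by 0.33 or more, the pooled SD of the members' mean within groups. In the values as deposited the median member difference was -0.4351 at 6 h and -0.238 at 24 h. Array weights gave 2 members called at 6 h and a median of -0.05631 at 24 h, and without the arrays of a beta-actin ratio under 0.3 the 6 h median was 0.8353. With the replicate number as a block the medians were 0.833 at 6 h, 0.3424 at 24 h and -0.336 between the times, and the block changed no member's call; over all genes it called 1 at 6 h, against 0 without it. Leaving out single arrays gave medians from 0.1772 to 0.5801 at 6 h, from -0.009808 (without vehicle replicate 1) to 0.6105 at 24 h and from -0.3012 to -0.04412 between the times, with 0 members called throughout.

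Signs turned at 6 h as deposited for Dsg2 (-0.1414), Dsc2 (-0.4351), Jup (-0.44) and Pkp3 (-0.7147); for Pkp3 under median scaling (-0.07116) and the mean of probe sets (-0.6158); and for Dsc2 with array weights (-0.4668) and without low beta-actin arrays (-0.1178). At 24 h they turned as deposited for Dsg2 (-0.1809), Dsc2 (-0.2053), Dsc3 (-0.1048), Dsp (-0.238), Jup (-0.7297), Pkp1 (-0.3167) and Pkp3 (-0.1994); with array weights for Dsg2 (-0.1569), Dsc1 (0.2306), Dsc2 (-0.08403), Jup (-0.2873) and Pkp1 (-0.05631); for Jup under median scaling (-0.2252) and loess (-0.001411); and for Pkp3 under the mean of probe sets (-0.007581). Between the times they turned for Pkp2 as deposited (0.0143), with array weights (0.247), with the replicate block (0.1177) and without low beta-actin arrays (0.1168); for Pkp3 with array weights (-0.4387), the block (-0.3896) and without those arrays (-0.1384); for Dsc2 with the block (-0.08603); and under the mean of probe sets for Dsg2 (0.2404), Dsc3 (0.2369) and Dsp (0.1045). The cause was not tested.

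With single arrays left out, 6 h differences ran from -0.2521 to 0.6238 for Dsc2, -0.2987 to 0.02682 for Pkp2 and -0.208 to 0.5801 for Pkp3. At 24 h they ran from -0.282 to 0.2995 for Dsc1, -0.139 to 0.7568 for Dsc2, -0.009808 to 0.2468 for Dsp and -0.3817 to 0.3037 for Jup. Between the times they ran from -0.4351 to 0.1641 for Dsg2, -0.001565 to 0.5948 for Dsc1, -0.105 to 0.4616 for Dsc2, -0.2554 to 0.04353 for Pkp2 and -0.08457 to 0.6778 for Pkp3. Over all genes limma called 0 at 6 h, but 855 as deposited, 2498 with array weights and 23 without 24 h replicate 4. Jup has no value without probe sets of the s_at kind.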
